A study of Mus musculus with 6 samples.

Results

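The genes described here are those of the blood that circulates through the early limb bud: the globins Hba-x, Hba-a1, Hbb-y, Hbb-bh1 and Hbb-b1, and the erythroid genes Alas2, Slc4a1, Klf1 and Gata1. A probe set was taken as a member where the platform annotation gave it exactly 1 symbol and that symbol was one of these 9 names. This found 14 of 45037 probe sets, for 8 of the 9 genes. Hbb-y, Hbb-bh1 and Slc4a1 had 3 probe sets each, and Hba-x, Hba-a1, Alas2, Klf1 and Gata1 had 1 each. Hbb-b1 had none of its own: it shares 1 probe set with other adult beta-globin genes, and Hba-a1 shares 3 more with Hba-a2. Those 4 joint probe sets, with 1 of Hba-a2 and 2 of Hbb-b2, made 7 adult globin probe sets that are no members; they are given beside the members because they carry most of the adult globin signal, a choice made after their values were seen.

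RNA came from proximal hindlimb buds of Lmx1b -/- and wild-type mouse embryos at E11.5 (embryonic age in days), all of the 129Sv strain, with 3 pools in each group and 1 array per pool. Each pool held about 500 µm of tissue from the proximal end of 6 buds, taken from 3 embryos. LMX1B is the LIM homeodomain transcription factor that specifies dorsal limb mesenchyme. The labels give the genotype alone, with no tissue or cell type to which the loss was restricted, and pooling hides differences between embryos.

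In the mouse, the first red cells arise in the yolk sac and enter the circulation as large nucleated cells, the primitive erythroblasts. They make embryonic haemoglobin from the zeta-type chain of Hba-x and the beta-type chains of Hbb-y and Hbb-bh1, together with adult alpha chains, and as they mature Hbb-bh1 gives way to Hbb-y. The definitive red cells that the fetal liver releases later use adult alpha and adult beta chains. Limb bud mesenchyme itself is not known for globin expression, so these transcripts are read here as a measure of the blood in each pool.

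The embryonic and adult genes of each globin cluster lie next to one another and are switched in development through their promoters and a distant enhancer region. The 250 bases before the start site of 1 embryonic and 1 adult gene of each cluster are shown, because the results turn on embryonic against adult globins. They come from RefSeq on build GRCm38.p6, a C57BL/6J genome and not the 129Sv strain of the embryos, and 6 of the 9 members matched. Capitals mark 3 motifs, searched on both strands: GATAA, the core that GATA1 binds, CCNCNCCCN, the kind of site that KLF1 binds, and CCAAT. The adult beta-globin gene shown is Hbb-bs, which the joint adult beta probe set also reads. The windows are chr11:32276350-32276599 (plus strand), chr11:32283422-32283671 (plus strand), chr7:103853208-103853457 (minus strand) and chr7:103827929-103828178 (minus strand).
Hba-x: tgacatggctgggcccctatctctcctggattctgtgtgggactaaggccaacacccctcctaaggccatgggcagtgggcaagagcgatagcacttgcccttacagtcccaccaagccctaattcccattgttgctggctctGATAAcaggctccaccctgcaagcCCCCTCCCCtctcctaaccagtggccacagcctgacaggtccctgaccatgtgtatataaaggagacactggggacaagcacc
Hba-a1: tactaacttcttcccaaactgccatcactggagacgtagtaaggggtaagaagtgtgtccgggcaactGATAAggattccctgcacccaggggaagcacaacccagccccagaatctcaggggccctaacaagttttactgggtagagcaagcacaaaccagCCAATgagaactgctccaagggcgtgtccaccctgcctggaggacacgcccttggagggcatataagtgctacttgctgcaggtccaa
Hbb-y: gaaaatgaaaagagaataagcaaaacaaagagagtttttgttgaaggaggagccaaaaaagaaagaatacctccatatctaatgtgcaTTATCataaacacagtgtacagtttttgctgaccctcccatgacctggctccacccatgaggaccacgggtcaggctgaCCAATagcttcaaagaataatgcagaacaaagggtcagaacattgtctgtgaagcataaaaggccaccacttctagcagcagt
Hbb-bs: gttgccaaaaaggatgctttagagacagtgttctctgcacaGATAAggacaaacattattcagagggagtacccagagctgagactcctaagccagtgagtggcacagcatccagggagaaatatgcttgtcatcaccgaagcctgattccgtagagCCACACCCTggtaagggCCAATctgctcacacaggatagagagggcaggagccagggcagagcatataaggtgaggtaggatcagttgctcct
Each of these 4 windows held 1 GATAA, starting at -107 in Hba-x, -182 in Hba-a1, -162 in Hbb-y and -209 in Hbb-bs, counted from the start site. Among the 6 members with a window, 5 held GATAA (all but Gata1), against 22.6% of 32851 promoter windows of this length. CCNCNCCCN stood in 3 of the 6, Hba-x, Alas2 and Gata1, against 45.8% of all windows, with overlapping matches in Alas2. CCAAT stood in 3 of the 6, Hba-a1, Hbb-y and Klf1, against 33.9%. A match is a stretch of letters and not a measured binding site.

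Limb mesenchyme markers were read in both groups. All 17, Prrx1, Tbx4 and Pitx1 among them, had a mean over the 6 pools of at least 6 on the log2 scale. At 1 probe set per gene, 9069 of all 18193 genes did so. The mean level of the 17 ran from 9.32 to 9.37 in Lmx1b -/- pools and from 9.31 to 9.43 in wild-type pools. This list does not tell proximal from distal limb tissue. The brighter Lmx1b probe set read 4.62, 4.23 and 4.57 in Lmx1b -/- pools 1 to 3, against 8.02, 7.58 and 8.17 in wild-type pools 1 to 3, while the other lay at 3.92 and 3.93 and checks nothing. Correlations between arrays ran from 0.993 to 0.997. Xist, the transcript of the inactive X chromosome, read 9.66, 9.16 and 10.79 in Lmx1b -/- pools, against 4.68, 9.88 and 4.72 in wild-type pools, so that wild-type pools 1 and 3 stood apart. Alas2 and Gata1 lie on the X chromosome, and the part of embryo sex in their values was not tested beyond a fit that held Xist as a covariate.

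Embryonic globin transcripts were among the strongest signals of the bud in every pool. Values are log2 RMA values, where RMA is the robust multi-array average, and the brightest probe set on an array reached a mean of 13.70. Hbb-y (1436823_x_at), the epsilon-type chain, read 13.46, 13.50 and 13.43 in Lmx1b -/- pools 1 to 3, against 13.39, 13.32 and 13.34 in wild-type pools. All 3 Lmx1b -/- pools lay above all 3 wild-type pools, by a narrow margin and near the top of the scale, where array signals can saturate. Its 2 other probe sets averaged 13.42 and 12.82 in Lmx1b -/- pools and 13.32 and 12.71 in wild-type pools.

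Hba-x (1448716_at), the zeta-type partner of these beta chains, read 12.31, 12.24 and 12.08 in Lmx1b -/- pools, against 12.13, 12.13 and 12.21 in wild-type pools. The groups overlapped, with Lmx1b -/- pool 3 the lowest of all 6. Hbb-bh1 (1437990_x_at), the earlier of the embryonic beta-type genes, read 12.30, 12.21 and 11.86 in Lmx1b -/- pools, against 12.24, 11.92 and 12.08 in wild-type pools. Here too the groups overlapped and Lmx1b -/- pool 3 was lowest. Its 3 probe sets followed one another over the 6 pools (Pearson's r from 0.980 to 0.987).

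Each of the 7 embryonic globin probe sets exceeded at least 99.2% of all probe sets by its mean over the 6 pools. Probe sets bind with different strength, so neither this rank nor a gap between values gives the ratio of embryonic to adult transcript.

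Adult alpha-globin signal was just as plain, and adult beta-globin signal was also present. The member Hba-a1 (1453574_at) read 3.01, 3.05 and 3.03 in Lmx1b -/- pools, against 3.09, 3.04 and 2.81 in wild-type pools. These values lie at the bottom of the range, above only 18.2% of probe sets, and carry no usable level of the gene. The brightest probe set annotated to Hba-a1 and Hba-a2 together (1428361_x_at) read 13.16, 13.19 and 13.04 in Lmx1b -/- pools, against 12.88, 13.02 and 12.99 in wild-type pools. It exceeded 99.9% of probe sets, so adult alpha transcript was abundant although the only Hba-a1 member was dim.

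Hbb-b1 could be read only through the probe set annotated jointly to Hbb-b1, Hbb-b2, Hbb-bs and Hbb-bt (1417184_s_at), the adult beta genes. It read 11.22, 11.09 and 11.08 in Lmx1b -/- pools, against 10.12, 10.85 and 10.55 in wild-type pools. The groups did not overlap, and wild-type pool 1 was the lowest by a wide margin. Hbb-b2 (1427865_at) read 6.25, 6.13 and 6.23 in Lmx1b -/- pools, against 5.75, 5.78 and 5.83 in wild-type pools, again without overlap. Probe sets whose names end in x_at or s_at can bind transcripts of related genes, which matters for globins because the adult genes are near copies of one another.

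**Figure D1:**
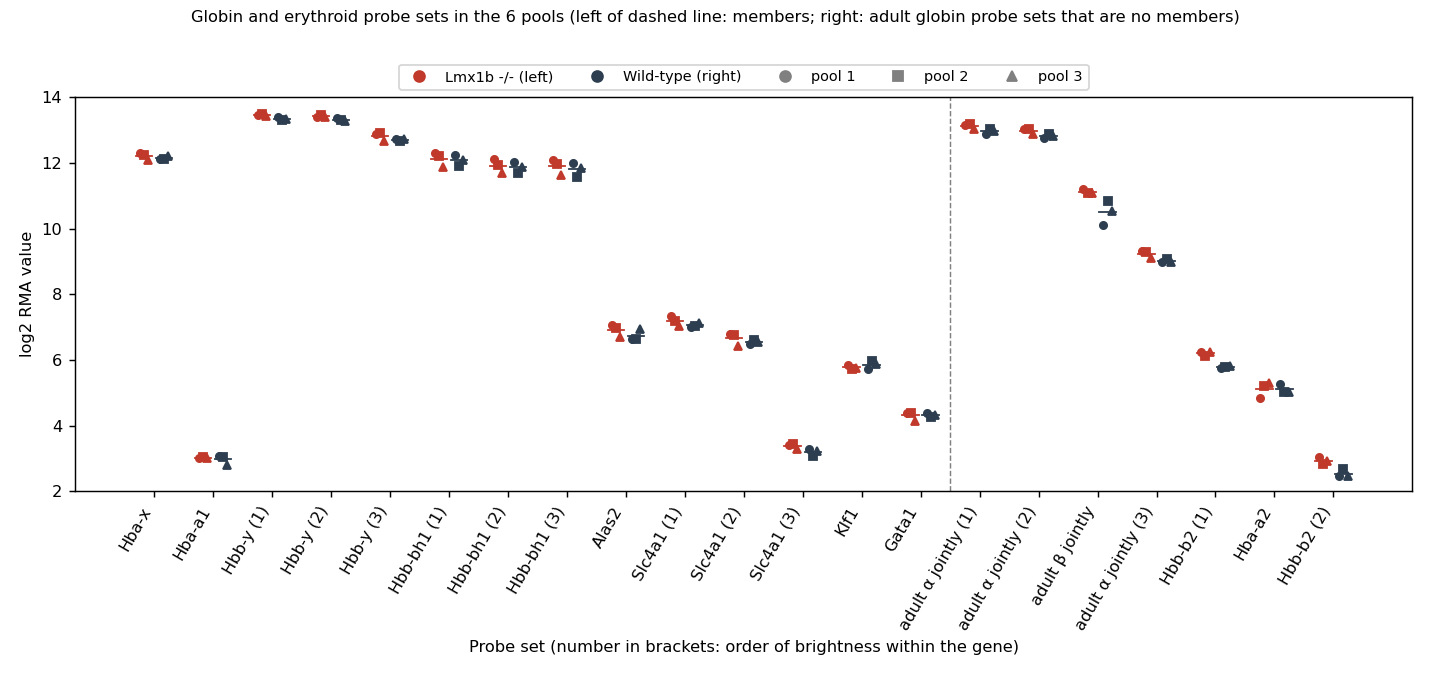
The vertical axis gives the log2 RMA value of each probe set, with 1 point per pool and a bar at the group mean, Lmx1b -/- on the left and wild-type on the right of each position. Embryonic globins and the brighter joint adult alpha probe sets sat near 12 to 13.5 in all 6 pools, Hba-a1's own probe set sat near 3, and the joint adult beta probe set averaged 11.13 in Lmx1b -/- and 10.51 in wild-type pools.

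The remaining members read at lower values. Slc4a1 encodes band 3, the anion exchanger of the red cell membrane, and its brightest probe set (1416464_at) read 7.34, 7.20 and 7.04 in Lmx1b -/- pools, against 6.99, 7.04 and 7.13 in wild-type pools. Alas2 (1451675_a_at), the erythroid enzyme of the first step of haem synthesis, read 7.08, 6.96 and 6.71 in Lmx1b -/- pools, against 6.63, 6.65 and 6.94 in wild-type pools. In both of these probe sets the groups overlapped, with Lmx1b -/- pools 1 and 2 on top and pool 3 inside the wild-type range. In another Slc4a1 probe set (1434502_x_at) Lmx1b -/- pool 3 was the lowest of all 6, at 6.43.

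Klf1 (1418600_at), the transcription factor that activates adult beta-globin, read 5.85, 5.72 and 5.75 in Lmx1b -/- pools, against 5.72, 5.97 and 5.89 in wild-type pools. Gata1 (1449232_at), the zinc finger factor that red cell development requires, read 4.40, 4.40 and 4.16 in Lmx1b -/- pools, against 4.38, 4.26 and 4.33 in wild-type pools. Both genes overlapped between the groups, and Gata1 lay on the dim side of the array medians, with a mean of 4.32, above 41.4% of probe sets. Over the 6 pools Alas2 followed the 3 Slc4a1 probe sets (r from 0.690 to 0.947), whereas Klf1 did not follow the other members (r from -0.804 to 0.153 over 13 pairs). These correlations describe 6 shared arrays only.

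A blood index over the 8 member genes placed all 6 pools within 1.16-fold of one another. For each pool the probe sets of each gene were averaged, the mean over the 6 pools was subtracted, and the 8 genes were averaged. The index was 0.12, 0.07 and -0.09 in Lmx1b -/- pools 1 to 3, against -0.02, -0.06 and -0.01 in wild-type pools. The Lmx1b -/- pools thus held both the highest and the lowest index, and the wild-type pools lay between them.

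The index averaged 0.03 ± 0.11 in Lmx1b -/- pools and -0.03 ± 0.03 in wild-type pools (SD, n = 3 each), a difference of 0.06, or 1.04-fold, less than the spread among the Lmx1b -/- pools. It was 0.13 without Lmx1b -/- pool 3 and 0.02 without Lmx1b -/- pool 1. A log2 index weights dim and bright genes alike, Hba-a1 with no usable level among them. With member probe sets of a mean of at least 6 only, the difference was 0.10. Over the 6 pools the range was 1.19-fold for the embryonic globins. Among probe sets that are no members, it was 1.22-fold for joint adult alpha and 1.74-fold for adult beta. Joint adult alpha gave 0.14, 0.14 and -0.01 in Lmx1b -/- pools, against -0.15, -0.03 and -0.09 in wild-type pools. These groups did not overlap, by a narrow margin. In pooled tissue, fewer red cells and less RNA per red cell cannot be told apart. Embryonic globins alone gave 0.14, 0.09 and -0.11 in Lmx1b -/- pools, against 0.03, -0.12 and -0.02 in wild-type pools. The 4 erythroid genes other than globins gave 0.14, 0.06 and -0.11, against -0.08, -0.04 and 0.04. Both subsets placed Lmx1b -/- pool 1 first, and Lmx1b -/- pool 3 was lowest of all for the erythroid genes and next to lowest for the embryonic globins.

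**Figure D2:**
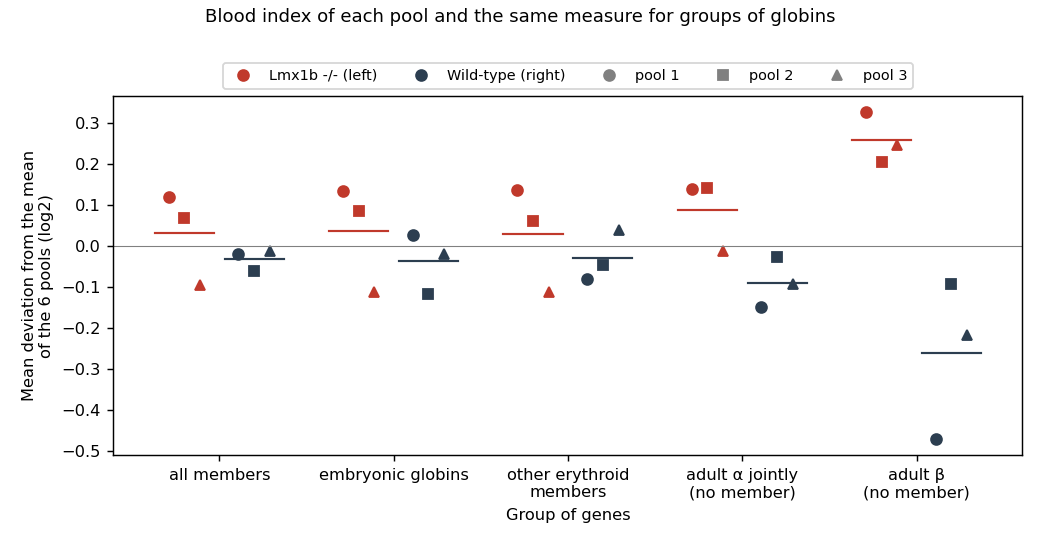
Each point is 1 pool, the vertical axis gives the mean log2 deviation from the mean of the 6 pools, bars mark group means, and Lmx1b -/- pools stand left of wild-type pools. The index averaged over all members overlapped between the groups, with Lmx1b -/- pools between -0.09 and 0.12. The adult beta probe sets lay between 0.21 and 0.33 in Lmx1b -/- pools and between -0.47 and -0.09 in wild-type pools. Joint adult alpha lay between -0.01 and 0.14 in Lmx1b -/- pools and between -0.15 and -0.03 in wild-type pools.

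No member passed the limma test between the groups. Of the 14 probe sets, 0 passed an adjusted p of 0.05 and 0 had an unadjusted p under 0.05, against 0.0844% and 9.41% of all 45037 probe sets. The probe sets that passed were 0.0222% higher and 0.0622% lower in Lmx1b -/-, as shares of all. Adjusted p-values of the members ran from 0.537 to 0.994. Of the 14, 12 had a change above 0, where 55.5% of all probe sets did, and the median change was 0.09 against 0.01 over all probe sets. The groups did not overlap, with Lmx1b -/- higher, in 2 members, both of Hbb-y, against 8.62% of all probe sets, and with Lmx1b -/- lower in 0 members, against 5.78%. All 10 members with a mean of at least 6 had a change above 0, against 46.2% of the 16900 probe sets that bright, and 2 of these 10 did not overlap, against 6.48%. The probe sets of 1 gene share its transcript and are not independent of one another.

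The embryonic globins stood close to 0. Hbb-y was at 0.11 in its brightest probe set (Lmx1b -/- minus wild-type on the log2 scale, standard error SE 0.06, limma adjusted p = 0.607), with a 95% interval from -0.03 to 0.26. Hba-x was at 0.06 (SE 0.08, interval -0.12 to 0.24, limma adjusted p = 0.863), with 0.0057 without Lmx1b -/- pool 1 and 0.12 without Lmx1b -/- pool 3. Hbb-bh1 was at 0.05, 0.03 and 0.08 in its 3 probe sets, and all 3 values turned below 0 without Lmx1b -/- pool 1 or without wild-type pool 2.

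Alas2 had a change of 0.18 (SE 0.12, interval -0.10 to 0.45, limma adjusted p = 0.681), the highest upper bound of any member. Its value was 0.09 without Lmx1b -/- pool 1 and 0.31 with Xist as a covariate. The 3 Slc4a1 probe sets stood at 0.13, 0.12 and 0.18, the last from a dim probe set with a mean of 3.29. With 1 pool left out they ran from 0.062 to 0.21, from 0.050 to 0.23 and from 0.13 to 0.23. Klf1 was at -0.08 (interval -0.28 to 0.11, and from -0.16 to -0.029 with 1 pool left out) and Gata1 at 0.00 (interval -0.20 to 0.19). In data simulated from these 45037 probe sets, the fit recovered 58.4% of changes of 0.5 and 0.4% of changes of 0.25, so changes of 0.25 rarely passed there. The changed probe sets were drawn from all 45037. The members' own SEs, from 0.06 to 0.14, were not simulated.

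Among the adult globin probe sets, which are no members, all 7 changes were above 0, against 55.5% of all probe sets, with Hba-a2 at -0.0069 once each array was centred on its median. None passed the limma threshold either, but 5 of the 7 had an unadjusted p under 0.05, where 5.22% of all probe sets did so with a higher value in Lmx1b -/-. In 5 of the 7 the groups did not overlap, with Lmx1b -/- higher, against 8.62% of all probe sets. The 7 read the adult alpha and adult beta genes repeatedly and are not independent of one another. A dim Hbb-b2 probe set, with a mean of 2.73, is among the 5. Hbb-b2 was at 0.42 (SE 0.07, interval 0.26 to 0.57, limma adjusted p = 0.1001), or 1.33-fold, with 0.41 in its dim probe set. The joint adult beta probe set was at 0.62 (SE 0.16, interval 0.24 to 1.00, limma adjusted p = 0.313), or 1.54-fold.

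Wild-type pool 1 held the lowest value in 6 of the 7 adult probe sets, and without it the joint adult beta change was 0.43. With Xist as a covariate that change was 0.31 (limma adjusted p = 0.875), against 0.41 for Hbb-b2 (limma adjusted p = 0.595). Wild-type pools 1 and 3, which stood apart in Xist, read 10.12 and 10.55 in the joint adult beta probe set, against 10.85 in wild-type pool 2. Hbb-b2, at 5.75 and 5.83 against 5.78, did not follow that order. The part of embryo sex in these values was not tested beyond this fit. The 3 joint adult alpha probe sets stood at 0.17, 0.15 and 0.22 (limma adjusted p from 0.451 to 0.564). Hba-a2, with a mean of 5.11, was at 0.01.

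**Figure D3:**
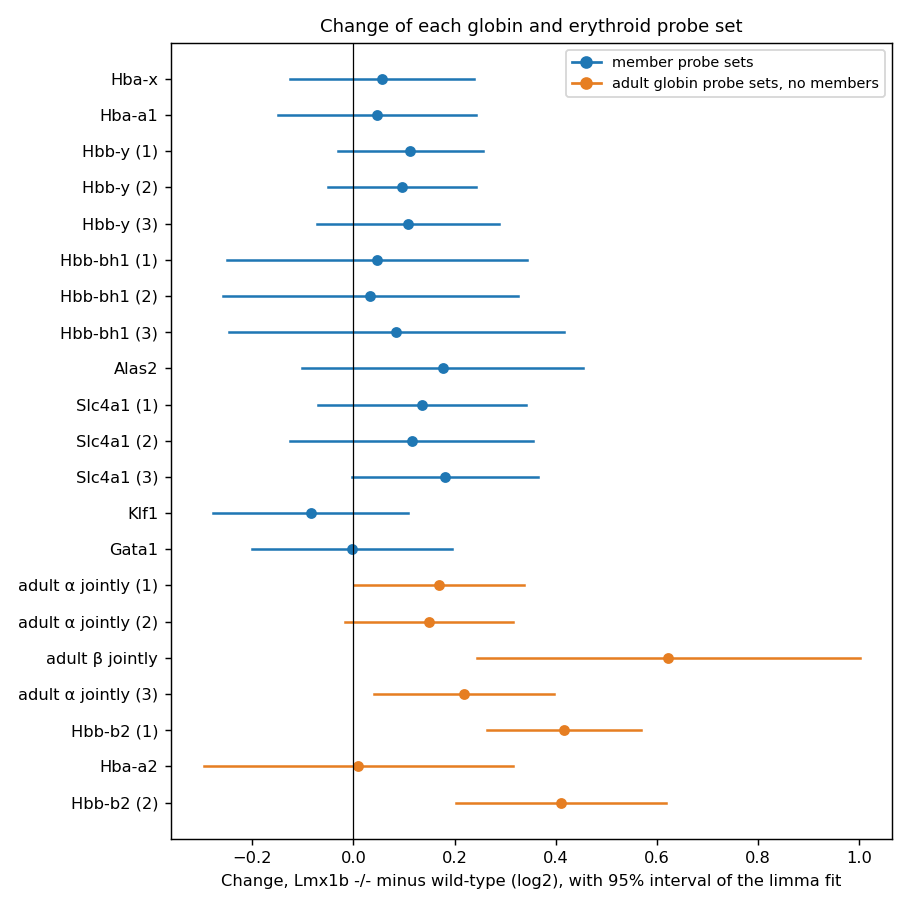
Points give the change of each probe set, Lmx1b -/- minus wild-type in log2 units, and lines the 95% interval of the limma fit, for the 14 members and the 7 adult globin probe sets. Every member interval reaches across 0, while 5 adult globin intervals, of the joint adult beta probe set, both Hbb-b2 and 2 joint adult alpha probe sets, lie above 0 before adjustment for multiple tests.

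Embryonic against adult globin was compared as the difference between a pair of probe sets within each pool. Such a difference cancels a shared shift only where both probe sets respond alike. Hbb-y, between 13.32 and 13.50 where the arrays reached 13.70, may not, and its own change was 0.11, so its pairs with adult beta probe sets mainly restate the changes of 0.62 and 0.42 given above. The pair of members, Hba-x minus Hba-a1, averaged 9.18 ± 0.13 in Lmx1b -/- pools and 9.17 ± 0.20 in wild-type pools (SD, n = 3 each). It has little meaning with Hba-a1 at the bottom of the range, and pairs with Hbb-b1 could not be formed. In all 7 pairs were computed, 6 of them chosen after the values were seen. With 3 pools against 3 the two-sided exact permutation test cannot give less than 0.1.

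Hbb-y minus the joint adult beta probe set was 2.23, 2.41 and 2.35 in Lmx1b -/- pools, against 3.26, 2.47 and 2.79 in wild-type pools. All Lmx1b -/- values lay below all wild-type values, with means of 2.33 ± 0.09 and 2.84 ± 0.40 and a change of -0.51 (exact permutation p = 0.1, adjusted over the 7 pairs 0.233). Wild-type pool 1 contributed much of it, and the change was -0.30 without that pool. Hbb-y minus Hbb-b2 was 7.21, 7.36 and 7.19 in Lmx1b -/- pools, against 7.63, 7.54 and 7.50 in wild-type pools, a change of -0.30 without overlap (exact permutation p = 0.1, adjusted 0.233).

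Hbb-bh1 gave a like picture with more spread. Its own change was 0.05, so its pairs with adult beta probe sets also mainly restate the adult beta changes. Its difference from Hbb-b2 was 6.05, 6.08 and 5.63 in Lmx1b -/- pools, against 6.49, 6.14 and 6.25 in wild-type pools, a change of -0.37 without overlap (exact permutation p = 0.1). The groups overlapped once the probe sets of each gene were averaged (change -0.36, exact permutation p = 0.3), and the change was -0.23 without Lmx1b -/- pool 3. Its difference from the joint adult beta probe set stood at -0.58, with overlap (exact permutation p = 0.3), and at -0.30 without wild-type pool 1. On the alpha side, Hba-x minus the brightest joint adult alpha probe set was -0.85, -0.95 and -0.97 in Lmx1b -/- pools, against -0.75, -0.90 and -0.78 in wild-type pools. That change was -0.11, with overlap (exact permutation p = 0.2).

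Hbb-bh1 minus Hbb-y, the pair of embryonic beta-type genes whose order of use marks the age of primitive red cells, was -1.16, -1.28 and -1.56 in Lmx1b -/- pools, against -1.15, -1.40 and -1.26 in wild-type pools. The groups overlapped (change -0.07, exact permutation p = 0.6). No pair passed 0.05, which this design could not have reached.

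**Figure D4:**
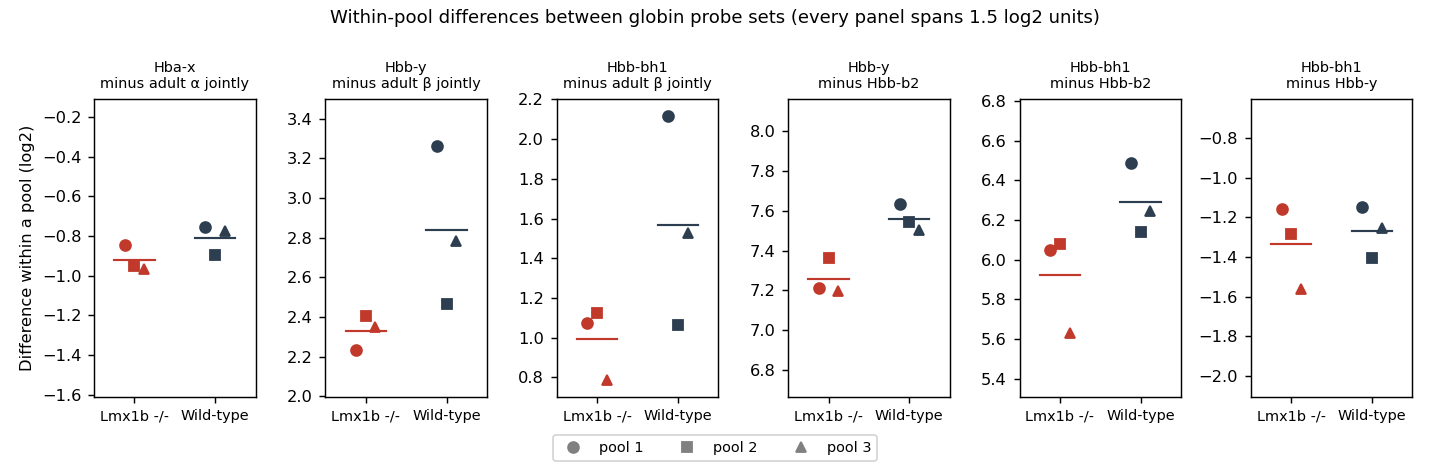
Each panel gives 1 within-pool difference between 2 globin probe sets on the log2 scale, with 1 point per pool, a bar at the group mean, and Lmx1b -/- left of wild-type. The 3 pairs without overlap are Hbb-y minus the joint adult beta probe set, Hbb-y minus Hbb-b2 and Hbb-bh1 minus Hbb-b2, with changes of -0.51, -0.30 and -0.37, the last of which overlapped when each gene's probe sets were averaged.

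Other red cell genes showed the same lack of passing changes. Across 6 lists, 82 of 99 listed genes were measured, with 1 probe set per gene, the brightest. Of these, 0 passed the limma threshold, against 0.0934% of all 18193 genes, and 11 had an unadjusted p under 0.05, against 8.92%. A change above 0 was seen in 52 of the 82, against 57.0% of all genes, and the median change was 0.02 both in the lists and over all genes. The groups did not overlap in 11 genes with Lmx1b -/- higher, against 9.16% of all genes, and in 5 with Lmx1b -/- lower, against 5.44%.

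The red cell membrane and skeleton list had 14 of 17 genes above 0, against 57.0% of all genes, and a median of 0.07. The groups did not overlap in 5 genes with Lmx1b -/- higher, against 9.16%, and in 0 with Lmx1b -/- lower, against 5.44%. An unadjusted limma p under 0.05 was seen in 1 of the 17, against 8.92%. Kel, the Kell blood group antigen, had the smallest p there, at 0.18 (limma adjusted p = 0.527). Mpp1, a palmitoylated membrane protein of red cells, was the brightest, with 8.01 in Lmx1b -/- and 7.99 in wild-type pools. Of the 17 genes, 5 were under 4 and near the bottom of the range.

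Among 16 erythroid transcription factors and cofactors, 9 were above 0 and 7 below, with a median of 0.01. E2f2, an E2F cell cycle factor, had the smallest p, at 0.23 (limma adjusted p = 0.447), and Ldb1, the cofactor that joins GATA1 complexes to distant enhancers, was the brightest, at 9.36 in Lmx1b -/- and 9.37 in wild-type pools. Tal1 and Lmo2, partners of GATA1 in that complex, were at 0.01 and 0.00. Bcl11a, a repressor of embryonic globins in adult-type red cells, was at -0.15 (limma adjusted p = 0.53).

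Haem synthesis genes stood at a median of 0.03 over 13 genes, 8 of them above 0. Uros, the synthase that closes the haem ring precursor, had the smallest p, at 0.19 (limma adjusted p = 0.430), and Urod, the next enzyme, was the brightest, at 9.07 in Lmx1b -/- and 9.02 in wild-type pools. Iron genes had a median of 0.01 over 11 genes. Tfrc, the transferrin receptor, was at -0.31 (limma adjusted p = 0.485) and Fth1, the ferritin heavy chain, at 0.02.

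In the list of the erythropoietin receptor and other red cell genes, 14 of 24 were above 0 and the median was 0.02. Cited2, a transcriptional coregulator active in many tissues, had the smallest p, at 0.21 (limma adjusted p = 0.478), and Cd24a, a surface antigen of red cells and of many embryonic cells, was the brightest. Epor, the erythropoietin receptor, was at -0.01. Many of these genes are used by other limb bud cells too, so the lists do not read red cells alone. Of the listed globins, Hbb-b2 and Hba-a2 had a probe set of their own and are described above.

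Genes of the cells that line blood vessels were also read. All 20 endothelial markers were below 0 in the deposited values, against 43.0% of all genes, with a median of -0.14. Of the 20, 15 had a mean of at least 6, and 9092 of the 16900 probe sets that bright were below 0. No endothelial marker passed the limma threshold. An unadjusted p under 0.05 was seen in 3 of the 20, against 8.92%, and 5 did not overlap with Lmx1b -/- lower, against 5.44%. Between 17 and 20 stayed below 0 with 1 pool left out, and their mean level ran from 6.50 to 6.60 in Lmx1b -/- pools and from 6.64 to 6.84 in wild-type pools. Tek, the angiopoietin receptor, had the smallest p, at -0.65 (limma adjusted p = 0.0890), and Plvap, a protein of vessel wall pores, was the brightest. No endothelial marker had a mean under 4. All 15 hypoxia and glycolysis genes were also below 0, against 43.0% of all genes. Of the 15, 3 had an unadjusted limma p under 0.05, against 8.92%, and 4 did not overlap with Lmx1b -/- lower, against 5.44%. Their mean level ran from 7.96 to 8.12 in Lmx1b -/- pools and from 8.06 to 8.94 in wild-type pools, the highest in wild-type pool 3. Without that pool 10 of the 15 were below 0 and their median was -0.04, against -0.33 with it. Ldha, lactate dehydrogenase A, had the smallest p there (limma adjusted p = 0.481), and Pgk1, phosphoglycerate kinase, was the brightest. The part of either list in the globin values was not tested.

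The genes whose values followed the blood index most closely were sought among 1586 probe sets with a mean of at least 6 and a range of at least 0.5 over the pools. Car2, carbonic anhydrase 2, a red cell enzyme also found in other tissues, came first (Pearson's r = 0.883 over the 6 pools). Tenm4 (0.880), Dclre1b (0.858), Ctse (0.848) and Slc29a4 (0.845) came next. Tmem201, Mapk8ip1, Best1, Psmd6 and Fbrsl1 followed, with r from 0.798 to 0.843. With 6 pools and so many candidates, such values are a description only.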

How the data were processed

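For each array the authors deposited log2 values, 1 a probe set, from RMA per the submitters' processing notes. Its version was not given in the sources used here, and the annotation is that of the platform. The log2 base was inferred from the range of the values. RMA makes the arrays' distributions nearly equal, so a shift of most transcripts would not be seen. Tissue kept in RNAlater was extracted with Trizol and columns, and biotin-labelled cRNA was hybridised, per the labels' protocols.

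Of 45101 probe sets, 64 controls were left out. Of the rest, 34945 had 1 symbol in the platform annotation, 932 had several and 9160 had none. The test was limma's (version 3.58.1, lmFit and eBayes without a trend, under R 4.3.3), two-sided, Lmx1b -/- minus wild-type, with Benjamini-Hochberg adjustment over 45037 probe sets and a threshold of 0.05. The members, gene lists and tests were chosen with earlier results of these data known. Named genes were all member probe sets, for each list the genes past the threshold, with the smallest p and the highest mean, and the 10 nearest patterns. Other list members and the adult globin probe sets were named after their values were seen. The labels name separate pools, and p-values measure the spread between 3 pools a group. Deviations from the group means correlated at -0.239, -0.088 and -0.168 between pools of the same number, which were therefore not treated as pairs. The fit was tested on simulated data. Precision is limited by the number of arrays. Alternatives covered the variance model, scaling, dim probe sets, covariates and each pool left out.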

Additional observations from a re-analysis of the deposited data

How the results depend on the processing

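No member probe set passed the threshold in any of the 14 alternative fits. Between 0 and 5 member probe sets had an unadjusted limma p under 0.05, the 5 without Lmx1b -/- pool 3. The share of all probe sets under 0.05 in that fit was not computed, and probe sets of 1 gene are not independent. That count is therefore not read as a change of the members. Of 192 member values under alternatives, 180 kept their direction and side of the threshold. The block by pool number, the intensity trend, the robust variance and the limit to a mean of at least 6 leave each change as it was. Direction could not turn in those fits, so they say nothing about how stable it is. The 12 that turned were all small and far from the threshold. The 3 Hbb-bh1 probe sets turned to -0.039, -0.067 and -0.014 without Lmx1b -/- pool 1 and to -0.035, -0.052 and -0.028 without wild-type pool 2, and they reached 0.18, 0.15 and 0.22 without Lmx1b -/- pool 3. Gata1 ran from -0.045 to 0.078 with 1 pool left out, above 0 without Lmx1b -/- pool 3 or wild-type pool 1 (0.025), and was 0.028 with array weights and 0.094 with Xist as a covariate. Hba-a1 ran from -0.039, without wild-type pool 3, to 0.10 and was -0.0079 with Xist as a covariate. Hba-a2, which is no member, lay between -0.081 and 0.15 over the pools left out and at -0.0069 after median centring, and the other 6 adult globin probe sets stayed above 0 and short of the threshold in every alternative, with the lowest adjusted p for Hbb-b2 at 0.0669 with array weights.

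The count of all probe sets called, 38, was 13 to 38 with 1 pool left out. It was 14 with the pool number as a replicate block, 94 with an intensity trend and 69 with array weights. Among probe sets with a mean of at least 6, of 16900 tested, it was 19. With the blood index as a covariate it was 15, all 15 of them among the 38. A block or covariate leaves less of the 6 arrays to estimate the spread, and the part of blood content in that lower count was not tested. The block changed no member's call. The blood index difference of 0.06 moved by less than the pooled SD of the pools, 0.081, in every alternative, but ran from 0.018 to 0.13 over the pools left out, and stood at 0.093 against wild-type pool 2 alone. Hba-x minus Hba-a1 ranged from -0.058, without wild-type pool 1, to 0.12, and was also below 0 without Lmx1b -/- pool 1 (-0.050) or wild-type pool 2 (-0.035). Hbb-bh1 minus Hbb-y ranged from -0.15 to 0.048, above 0 only without Lmx1b -/- pool 3. The cause of these turns was not tested. The 6 pairs with adult probe sets or of embryonic genes, the wild-type pool 2 setting and the leave-out counts of the endothelial and hypoxia lists were added after seeing the data. Over all probe sets the median change stood at 0.01, at 0.00 once arrays were centred and at 0.01 after a second quantile step. Dim probe sets, Hba-a1's among them, limit what can be read of those genes.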

Other observations

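Platelet and macrophage genes, the other blood lineages of the early limb bud, showed no passing change either. Of 11 megakaryocyte and platelet genes, 5 were above 0 and 6 below, with a median of -0.07, against 0.02 over all genes at 1 probe set per gene. Pf4, a chemokine stored in platelets, was the brightest, at 7.59 in Lmx1b -/- pools and 7.80 in wild-type pools (change -0.21, limma adjusted p = 0.607). Clec1b, the platelet receptor for podoplanin, had the smallest p, at 5.27, 5.46 and 5.46 in Lmx1b -/- pools, against 5.88, 5.58 and 5.84 in wild-type pools. Its groups did not overlap, and its change of -0.37 did not pass (limma adjusted p = 0.326). The mean level of the list ran from 5.10 to 5.21 in Lmx1b -/- pools and from 5.16 to 5.30 in wild-type pools.

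Of 17 macrophage genes, 11 were above 0 and 6 below, with a median of 0.03. Their mean level ran from 4.91 to 4.94 in Lmx1b -/- pools and from 4.80 to 4.96 in wild-type pools, and 2 of the 17 had a mean under 4. Csf1r, the receptor for macrophage colony-stimulating factor, was the brightest, at 6.46 in Lmx1b -/- pools and 6.36 in wild-type pools. Fcgr1, a receptor for immunoglobulin G, had the smallest p, at 0.17 (limma adjusted p = 0.489).

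In the limb mesenchyme list, Tbx3 had the smallest p, at 0.26 (limma adjusted p = 0.364), and Pdgfra was the brightest, at 11.08 in Lmx1b -/- pools and 11.23 in wild-type pools.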
